A study of Mus musculus with 15 samples.

Results

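The levels of 9 mouse serpin genes, *Serpinb1a*, *Serpinb1b*, *Serpinb1c*, *Serpinb2*, *Serpinb6b*, *Serpinb9*, *Serpinb9b*, *Serpina3f* and *Serpina3g*, were followed in RNA-seq libraries of alveolar macrophages. They were taken by symbol from the 68 genes whose symbol starts with Serpin, in a count table of 78317 Ensembl gene identifiers. The genes were chosen by their measured levels in the 5 groups of these same libraries, so their values and differences are given as a description, without a test. The cells were MH-S, an immortalized line of mouse alveolar macrophages, and each of the 5 groups held 3 wells. M0 cells received medium alone, M1 cells LPS (1 µg/mL) and IFN-γ (20 ng/mL), and M2 cells IL-4 (20 ng/mL), each for 24 h. The other groups received 0.1 mg/mL of CaP or SiO2 microrods for 24 h, which are rods of calcium phosphate or silica nanoparticles held together by alginate, protamine and carboxymethyl chitosan. Each microrod well held its own particle batch and every well held cells of the same line and passage, so replicate error here is that of wells and batches, not of animals.

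Serpins are protease inhibitors that present a reactive loop as bait. When a protease cleaves the loop, the serpin changes shape and traps the enzyme in a covalent complex, so each inhibitor molecule is used up. The clade B serpins, to which most of the 9 genes belong, stay mainly inside the cell, where they protect it from its own granule and lysosomal proteases, and in macrophages and neutrophils they are known for limiting neutrophil serine proteases. The clade A serpins are mostly secreted. Mouse clades A3, B1, B6 and B9 have expanded by gene duplication, so a human gene often has several mouse counterparts.

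The duplicated genes are close in sequence, which bears on how reads are shared between them. Human *SERPINB1* has *Serpinb1a*, *Serpinb1b* and *Serpinb1c* as mouse counterparts, and the first 60 coding bases of each are shown, with capitals where a base differs from *Serpinb1a*, because the groups differed in which of these copies was the most abundant. The same stretch is shown for *Serpinb9* and *Serpinb9b*, with capitals where the latter differs.
Serpinb1a: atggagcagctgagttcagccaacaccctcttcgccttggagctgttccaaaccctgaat
Serpinb1b: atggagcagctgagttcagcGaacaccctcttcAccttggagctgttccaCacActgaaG
Serpinb1c: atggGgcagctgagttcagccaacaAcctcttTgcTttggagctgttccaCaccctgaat
Serpinb9: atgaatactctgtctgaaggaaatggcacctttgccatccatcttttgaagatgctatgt
Serpinb9b: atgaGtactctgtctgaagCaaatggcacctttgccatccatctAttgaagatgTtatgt
*Serpinb1b* and *Serpinb1c* each differed from *Serpinb1a* at 5 of these 60 bases, and *Serpinb9b* differed from *Serpinb9* at 4. Over the whole coding sequence, *Serpinb1a* was 90.4% identical to *Serpinb1b* and 89.7% to *Serpinb1c*, while *Serpinb9* and *Serpinb9b* were 86.0% identical and *Serpina3f* and *Serpina3g* 87.4%. Outside these close copies the identity was far lower, at 56.9% between *Serpinb1a* and *Serpinb9*, 56.5% between *Serpinb1a* and *Serpinb2* and 55.0% between *Serpinb1a* and *Serpina3g*. The reads were 75 bases long, and 0.38% of the 75-base windows of the *Serpinb1a* transcript also occurred in another gene's transcript, against 0.986% for *Serpinb1b* and 1.86% for *Serpinb1c*. No window of *Serpinb2*, *Serpinb6b*, *Serpinb9* or *Serpinb9b* was shared, whereas *Serpina3f* shared 5.61% and *Serpina3g* 8.91%. These sequences come from a GENCODE transcript set of another release than the authors used.

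Libraries held between 8459643 and 68750050 counts, so that 1 count corresponded to 0.0143 to 0.132 CPM (counts scaled to library size). All 10 macrophage markers rose above 3 counts in at least 1 library, and 8 did so in every library. The exceptions were *Marco*, at 0 to 2.82 CPM, and *Siglecf*, at 0 to 0.478 CPM. The summed level of the 10, most of it *Lyz2* and *Cd68*, was 2671 to 3647 CPM in M0, M1 and the microrod groups. In M2 the sum was 1452 to 2224 CPM. Markers of T and NK cells, fibroblasts and epithelium were at or near 0, each list summing to at most 0.172 CPM in a library. The 6 neutrophil markers summed to 4.04 to 49.9 CPM, nearly all of it *Cxcr2*, with *S100a9* at 0 everywhere and *Ly6g* at no more than 1 count. That sum reached its highest value in M1, at 10.5 to 49.9 CPM against 7.88 to 16.6 in M0, and its part in the M1 differences was not tested. The stimuli showed in their usual marker genes, with *Il1b* at 411 ± 46.9 CPM in M1 (SD, n = 3) against 1.06 in M0, and *Arg1* at 1550 ± 171 CPM in M2 (SD, n = 3) against 10.99. In bulk libraries such as these, a change in the number of cells that express a gene and a change in RNA per cell cannot be told apart.

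Of the 9 genes, 6 passed the filter on low counts. *Serpinb2*, *Serpina3f* and *Serpina3g* did not. The 6 that passed were low to moderate in level, with group means between 0.113 and 9.08 CPM, and all lie on chromosome 13. *Serpinb1a* passed although it held few counts outside the M2 and CaP groups. *Serpinb9b* passed with 67 counts in the CaP group and 64 in the SiO2 group, but only 7 in M0, 11 in M1 and 16 in M2. The 6 are therefore not a sample of serpins in general.

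**Figure D1:**
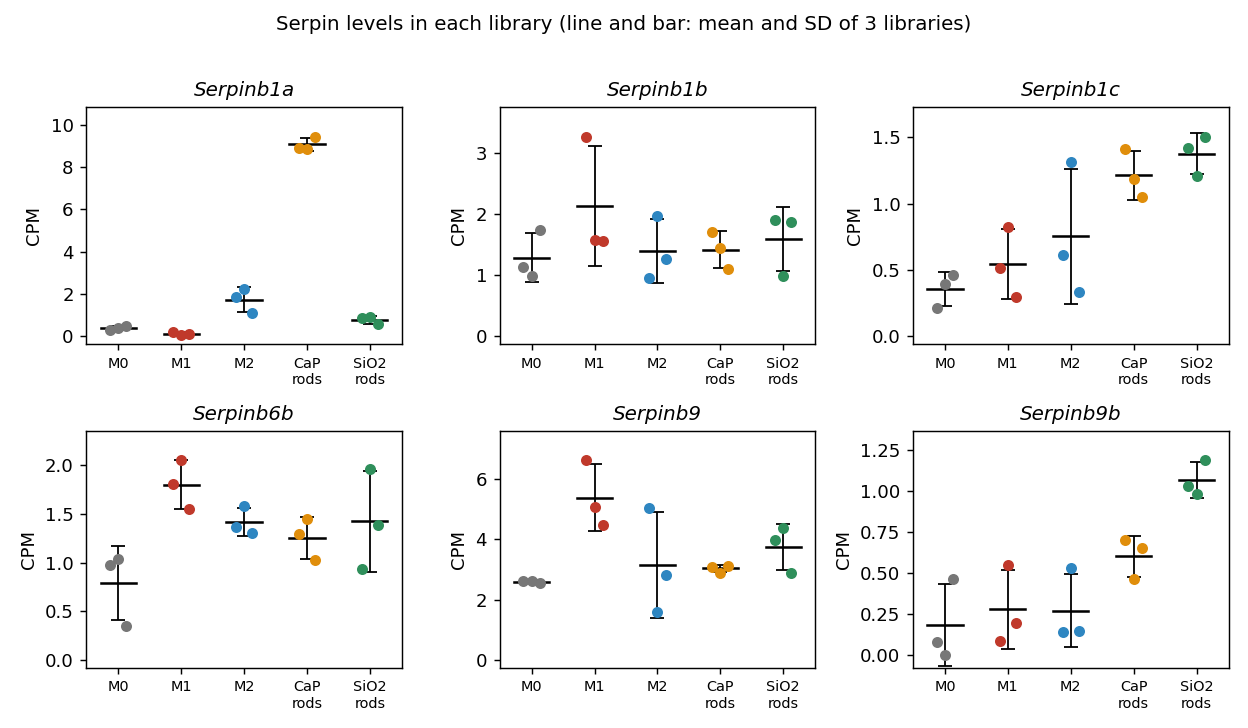
Levels in CPM (linear vertical axes, 1 scale per gene) of the 6 serpins that passed the filter, by group (horizontal axis); each point is a library, and the line and bar are the mean and SD of 3 libraries. The 3 CaP libraries stand far above all others for *Serpinb1a*, at 8.88 to 9.45 CPM, the microrod libraries lie above all M0 and M1 libraries for *Serpinb1c*, and the SiO2 libraries are highest for *Serpinb9b*.

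*Serpinb1a* showed the widest range of the 9 genes. It encodes the mouse counterpart of the inhibitor of neutrophil elastase, cathepsin G and proteinase 3. In M0, *Serpinb1a* was at 0.290, 0.390 and 0.463 CPM, and in the CaP group it was at 8.92, 8.88 and 9.45 CPM. In the SiO2 group *Serpinb1a* was at 0.832, 0.908 and 0.555 CPM, in M2 at 1.84, 2.24 and 1.09 CPM, and in M1 at 0.172, 0.0684 and 0.0972 CPM. The libraries of the 5 groups fell in separate ranges, in the order CaP, M2, SiO2, M0 and M1, although each M1 library held only 1 or 2 counts and was thus at or under the floor of 3 counts used here. The fitted difference from M0 in the CaP group was 4.70 on the log2 scale (SE 0.28), a fold of 25.9, and it lay between 4.41 and 4.79 when any 1 library was left out. Against SiO2 the CaP difference was 3.61 (SE 0.25), a fold of 12.2, and it ranged from 3.38 to 3.72 without any 1 library.

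The M2 and SiO2 differences of *Serpinb1a* were smaller. IL-4 went with a log2 difference from M0 of 2.11 (SE 0.35), which ranged from 1.82 to 2.51 on leaving out a library. For SiO2 microrods the log2 difference of *Serpinb1a* from M0 was 1.09 (SE 0.37), resting on 43 counts in the SiO2 group and 21 in M0. In M1 the pooled counts of *Serpinb1a* were 4, and the ratio to M0 was 0.323 with a 95% interval of 0.0806 to 0.957 that covers counting error only.

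The other copies of the *Serpinb1* cluster did not follow the same order of groups. *Serpinb1b* was at 1.13, 0.976 and 1.74 CPM in M0, at 1.70, 1.45 and 1.096 CPM in the CaP group and at 1.91, 0.983 and 1.86 CPM in the SiO2 group. It was at 3.27, 1.57 and 1.56 CPM in M1 and at 0.955, 1.97 and 1.26 CPM in M2, so the libraries of every pair of neighbouring groups overlapped. The log2 difference of *Serpinb1b* from M0 was 0.23 (SE 0.34) in the CaP group, 0.44 (SE 0.35) in the SiO2 group, 0.11 (SE 0.39) in M2 and 0.81 (SE 0.39) in M1. The M1 value depended on 1 library, since it was 0.37 without M1 replicate 1.

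*Serpinb1c* was high with both kinds of microrod. Its levels were 0.211, 0.390 and 0.463 CPM in M0, 1.42, 1.18 and 1.05 CPM in the CaP group and 1.42, 1.21 and 1.51 CPM in the SiO2 group. All microrod libraries were above all M0 libraries and all M1 libraries, and the CaP and SiO2 libraries overlapped each other. The log2 difference of *Serpinb1c* from M0 was 2.01 (SE 0.36) for CaP and 2.20 (SE 0.37) for SiO2, and the difference between the microrods was -0.19 (SE 0.27). *Serpinb1c* levels in M1 were 0.516, 0.820 and 0.292 CPM, and in M2 they were 0.614, 1.32 and 0.329 CPM. Both polarized groups overlapped M0 in *Serpinb1c*, with log2 differences of 0.91 (SE 0.59) in M1 and 0.79 (SE 0.54) in M2. Leaving out a library moved the M1 value to between 0.42 (without M0 replicate 1) and 1.17 (without M1 replicate 3), and the M2 value to between 0.30 (without M0 replicate 1) and 1.53 (without M2 replicate 3).

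Because the split of reads among these copies was made by the authors' quantification, their counts were also added up. The sum of *Serpinb1a*, *Serpinb1b* and *Serpinb1c* was 2.02 ± 0.563 CPM in M0 (SD, n = 3), 11.7 ± 0.287 CPM with CaP, 3.73 ± 0.556 CPM with SiO2, 3.87 ± 1.48 CPM in M2 and 2.79 ± 1.04 CPM in M1. The log2 difference of the sum from M0 was 2.62 (SE 0.23) for CaP and 0.98 (SE 0.25) for SiO2, and it was 1.64 (SE 0.21) between them. *Serpinb1a* made up 17.4% to 22.2% of the sum in M0 and 74.1% to 81.5% in the CaP group. Its share was 14.1% to 29.3% in the SiO2 group, 40.5% to 54.0% in M2 and 2.78% to 5.00% in M1. The CaP and M2 libraries thus lay above M0 in the share that *Serpinb1a* took, and the SiO2 libraries overlapped M0. The M1 libraries lay below M0, with only 1 or 2 counts of *Serpinb1a* in each.

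**Figure D2:**
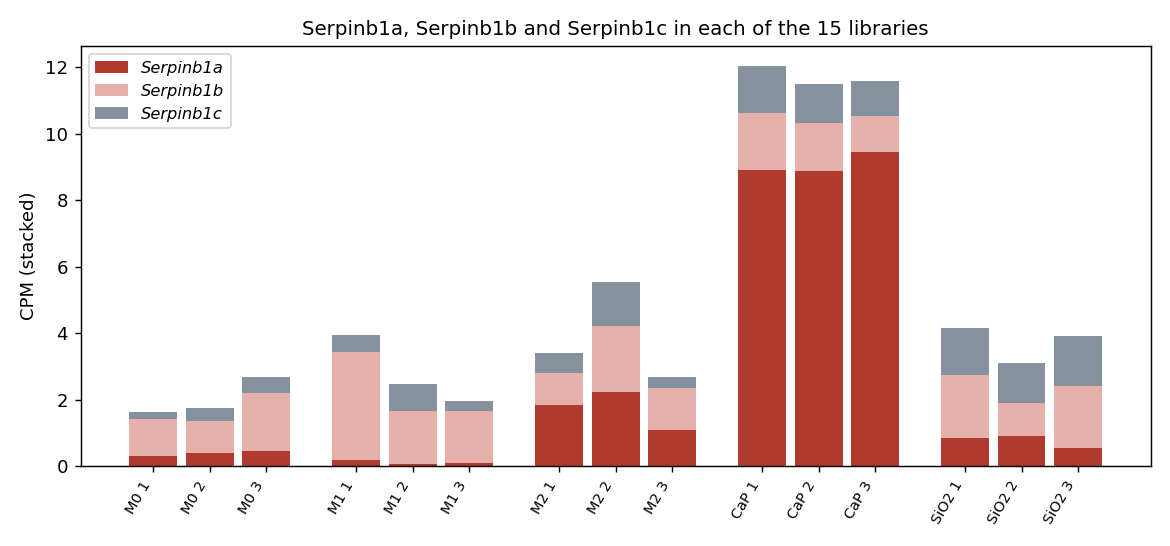
Stacked levels in CPM (vertical axis, from 0) of *Serpinb1a*, *Serpinb1b* and *Serpinb1c* in each of the 15 libraries (horizontal axis); the height of a bar is the sum of the 3 genes. *Serpinb1a* fills most of each CaP bar, 74.1% to 81.5% of the sum, and only 2.78% to 5.00% of each M1 bar.

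The genes next to *Serpinb1a* either held no counts or were not DEGs. In the GRCm38.p6 gene order on chromosome 13, *Serpinb1a* lies next to *Wrnip1*, followed by the pseudogene *Serpinb1-ps1*, *Serpinb1c*, *Serpinb6b*, *Serpinb9*, *Serpinb9b* and *Serpinb1b*, with unnamed gene models between them. *Wrnip1*, which encodes a protein of DNA damage tolerance, was at 7.94 ± 0.490 CPM in M0 (SD, n = 3) and at 5.85 ± 2.07 CPM in the CaP group, a log2 difference of -0.45 (SE 0.28, adjusted p = 0.425). *Serpinb1-ps1* had no count in any library.

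*Serpinb9* encodes the intracellular inhibitor of granzyme B, by which cytotoxic cells and some antigen-presenting cells protect themselves. It was highest in M1, at 6.62, 5.06 and 4.47 CPM against 2.63, 2.60 and 2.55 CPM in M0. The levels of *Serpinb9* were 3.10, 2.89 and 3.12 CPM with CaP, 3.96, 4.39 and 2.89 CPM with SiO2 and 5.05, 1.58 and 2.82 CPM in M2. The M1 libraries lay above all M0, CaP and SiO2 libraries, while M2 overlapped every group. CaP and SiO2 libraries also lay above the M0 libraries of *Serpinb9*, whose SD was only 0.0433 CPM. The log2 difference of *Serpinb9* from M0 was 1.05 (SE 0.31) in M1, with a range of 0.88 to 1.16 on leaving out a library, and 0.31 (SE 0.32) in M2, where it was -0.09 without M2 replicate 1. It was 0.23 (SE 0.22) for CaP and 0.51 (SE 0.23) for SiO2.

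*Serpinb9b*, a close copy whose product is known to inhibit granzyme M in the mouse, followed another order. In M0, *Serpinb9b* was at 0.0790, 0 and 0.463 CPM, and in the SiO2 group at 1.03, 0.983 and 1.19 CPM. The CaP libraries lay between them, at 0.697, 0.460 and 0.648 CPM. All SiO2 libraries were above the libraries of each other group, and the lowest CaP library was just under the highest M0 library. *Serpinb9b* levels were 0.0860, 0.547 and 0.194 CPM in M1 and 0.137, 0.526 and 0.143 CPM in M2, both overlapping M0.

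The M0 level of *Serpinb9b* rested on 7 counts in all, so its fitted differences moved with single M0 libraries. For SiO2 the log2 difference was 3.17 (SE 0.72), which became 2.63 on omitting M0 replicate 1 and 4.18 on omitting M0 replicate 3. For CaP it was 2.40 (SE 0.75), with 1.86 and 3.40 under the same omissions. Between the microrods the difference of *Serpinb9b*, CaP minus SiO2, was -0.77 (SE 0.47), with a range of -0.89 to -0.68 on leaving out a library. The sum over the 7 *Serpinb9* symbols, which *Serpinb9* dominates, differed from M0 by 1.03 (SE 0.28) in M1, 0.44 (SE 0.21) with CaP and 0.77 (SE 0.21) with SiO2 on the log2 scale.

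*Serpinb6b*, a copy of the more abundant *Serpinb6a*, had its lowest mean in M0 and its highest in M1. It was at 0.975, 1.04 and 0.348 CPM in M0 and at 1.81, 2.05 and 1.56 CPM in M1, where all libraries were above M0. *Serpinb6b* was at 1.37, 1.58 and 1.30 CPM in M2, also all above M0. It was at 1.29, 1.45 and 1.02 CPM with CaP and at 0.930, 1.97 and 1.39 CPM with SiO2, both overlapping M0. The log2 difference of *Serpinb6b* from M0 was 1.05 (SE 0.34) in M1, 0.64 (SE 0.33) in M2, 0.48 (SE 0.37) with CaP and 0.66 (SE 0.39) with SiO2. Summed over the 5 *Serpinb6* symbols the level was 66.8 CPM in M0, 61.4 in M1, 69.4 in M2, 71.7 with CaP and 77.9 with SiO2. Most of the sum was *Serpinb6a*, at 65.8 CPM in M0. The log2 difference of the sum between M1 and M0 was -0.12 (SE 0.17), smaller than its error, and it does not show the direction of *Serpinb6b*.

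**Figure D3:**
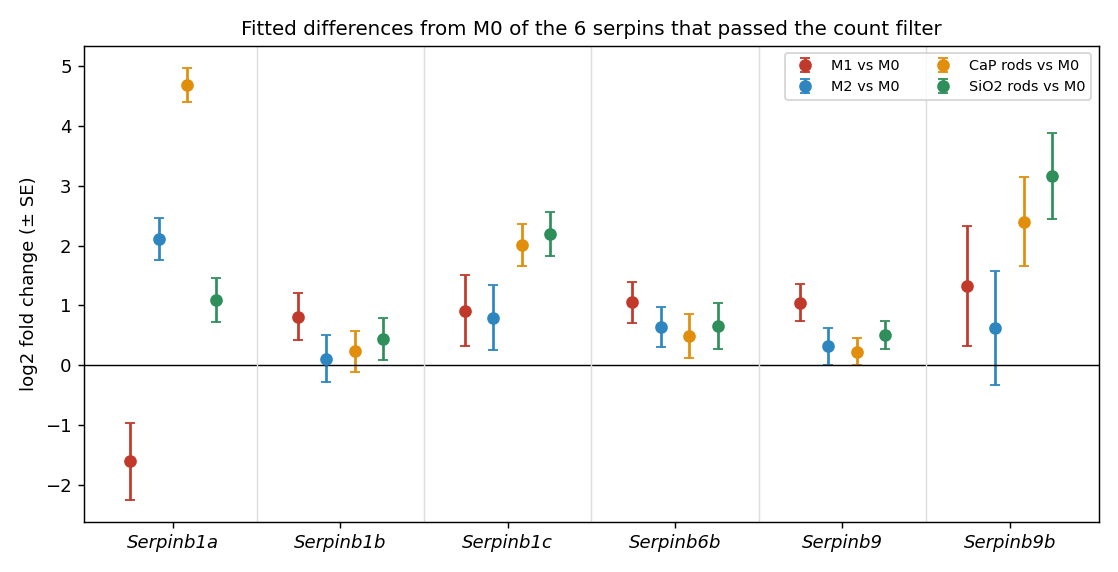
Fitted log2 fold changes from M0 (vertical axis, bars are ± SE) of the 6 serpins that passed the filter (horizontal axis), for M1, M2, CaP and SiO2. *Serpinb1a* spans from -1.61 in M1, where its libraries were at the floor, to 4.70 with CaP, and *Serpinb1c* and *Serpinb9b* have their highest values with the microrods.

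Levels per kilobase of transcript allow the genes to be set side by side. In M0, *Serpinb1b* (0.756 CPM per kb) and *Serpinb9* (0.747 CPM per kb) were the highest of the 9 genes, ahead of *Serpinb6b* (0.359 CPM per kb), *Serpinb1c* (0.217 CPM per kb), *Serpinb1a* (0.199 CPM per kb) and *Serpinb9b* (0.0556 CPM per kb). With CaP microrods, *Serpinb1a* was the highest, at 4.73 CPM per kb. *Serpinb6a*, which encodes a broad intracellular inhibitor of trypsin-like proteases and cathepsin G, was at 43.8 CPM per kb in M0 and 46.7 with CaP, well above each of the 9 genes in both groups.

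The remaining genes of the 9 were at or near the limit of detection. *Serpinb2*, which encodes plasminogen activator inhibitor 2, held 10 counts in all 15 libraries and never more than 3 in a library. Its M1 libraries held 2, 2 and 3 counts and its M0 libraries 1, 0 and 0, all within the floor, so no fold is given. *Serpina3g*, known as Spi2A and an inhibitor of lysosomal cathepsins, had 0 counts in all 15 libraries, which allows up to 0.0429 CPM in the deepest. Its neighbour in sequence *Serpina3f* had 3 counts in all and at most 1 in a library. The 14 *Serpina3* symbols together had 0 counts in M0, 5 in M1, 5 in M2, 3 with CaP and 3 with SiO2, so the sum over these copies was at the floor in every group as well.

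Upstream sequence from RefSeq (GRCm38.p6) was available for 8 of the 9 genes, and 2 are shown because they are the promoters of a gene that was highest with LPS and IFN-γ and of a gene that was not detected. Each run is the 250 bases before the start of the RefSeq gene, and capitals mark a motif match.
Serpinb9, chr13:33004291-33004540, plus strand: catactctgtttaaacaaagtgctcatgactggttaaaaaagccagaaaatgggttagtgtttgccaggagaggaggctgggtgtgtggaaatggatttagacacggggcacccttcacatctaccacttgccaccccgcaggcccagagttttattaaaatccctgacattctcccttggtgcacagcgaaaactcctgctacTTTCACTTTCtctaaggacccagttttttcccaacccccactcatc
Serpina3g, chr12:104235897-104236146, plus strand: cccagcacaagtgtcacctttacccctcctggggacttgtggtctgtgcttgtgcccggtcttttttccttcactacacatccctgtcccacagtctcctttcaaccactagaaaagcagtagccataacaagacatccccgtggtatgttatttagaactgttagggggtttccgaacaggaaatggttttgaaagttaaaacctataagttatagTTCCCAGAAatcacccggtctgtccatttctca
The capitals in *Serpinb9*, 46 to 37 bases before the start, are the reverse complement of GAAA and GAAA with any 2 bases between them, the letters of an interferon-stimulated response element (ISRE), which 2.98% of 32851 promoters held on either strand. The capitals in *Serpina3g*, 33 to 25 bases before the start, match TTCNNNGAA, the letters of a STAT-binding gamma-activated sequence (GAS), held by 7.02%. *Serpina3f* also held a GAS match, TTCCTAGAA, the same site in the overlapping windows of both of its listed starts. *Serpinb1b* held TTCAGTGGAA, a match of the STAT6-type letters TTC and GAA with any 4 bases between them, found in 5.85% of promoters. *Serpinb2* held TGAATCA, a match of the AP-1 letters TGANTCA found in 6.75%. This was the same site in the overlapping windows of both listed *Serpinb2* starts, and the second window also held a GAS match, TTCCAAGAA. No match of these letters or of the NF-kB letters GGGA and TTTCC with any 1 base between them, held by 0.356%, was found in the windows of *Serpinb1c*, *Serpinb6b* and *Serpinb9b*. The motifs can overlap, and a match is a string of letters, not a measured binding site.

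DEGs are genes with an adjusted p under 0.05 in edgeR's quasi-likelihood test whose log2 fold change also exceeded 0.5 in size. For M1 against M0 1 of the 6 serpins, *Serpinb9*, met that rule, where 14.1% of all genes tested did. In the comparison of M2 with M0 it was *Serpinb1a* alone, at a background of 4.13%, and for CaP against M0 also *Serpinb1a* alone, at 0.409%. None of the 6 met it for SiO2 against M0, where 0.0602% of genes did, and *Serpinb1a* met it for CaP against SiO2, where 0.0241% did. The libraries of the groups compared did not overlap for 3 of the 6 in M1 against M0 (32.2% of all genes), 2 in M2 (15.2%), 3 with CaP (17.4%), 4 with SiO2 (18.0%) and 2 for CaP against SiO2 (8.10%). Nothing is read from these counts, or from the medians that follow, since the genes were proposed with these comparisons in view. The median log2 difference of the 6 serpins was 0.98 in M1, 0.63 in M2, 1.25 with CaP, 0.87 with SiO2 and -0.20 for CaP against SiO2, beside medians of -0.01, 0.07, 0.06, -0.02 and 0.03 over all genes tested. These comparisons share the M0 libraries.

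The serpins outside the 9 were then tested, most of which were too low. Of 59 such symbols, 46 never rose above 3 counts, 15 of them with no count in any library. Only 6 of the 59 passed the filter and were tested. *Serpinb8*, which encodes an inhibitor of the proprotein convertase furin, was at 18.9, 19.1 and 23.4 CPM in M0, at 6.02, 4.65 and 5.54 CPM in M1 and at 9.69, 11.98 and 8.69 CPM in M2. It fell in M1 by 1.92 on the log2 scale (SE 0.19, adjusted p = 1.1e-05) and in M2 by 1.03 (SE 0.18, adjusted p = 0.00414), with no overlap of libraries. The M2 difference of *Serpinb8* was not a DEG in a model of the 6 libraries compared alone (adjusted p = 0.163).

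*Serpinf1* was higher in M2. It encodes pigment epithelium-derived factor, a serpin that does not inhibit proteases. *Serpinf1* was at 3.58, 4.23 and 3.36 CPM in M0 and at 6.62, 10.5 and 6.05 CPM in M2, where it rose by 0.99 (SE 0.23, adjusted p = 0.0274). That call held in 8 of 13 alternatives, and the losses included those without M2 replicate 1 (adjusted p = 0.0529), M0 replicate 1 (0.137) or M0 replicate 3 (0.0901). Of the 6 serpins tested, 2 were DEGs in M1, *Serpinb8* among them, and 2 in M2, *Serpinf1* and *Serpinb8*. Over all genes tested the shares were 14.1% in M1 and 4.13% in M2. None of the 6 was a DEG with either microrod or between them. There the shares were 0.409% with CaP, 0.0602% with SiO2 and 0.0241% between them, too small for 0 of 6 to be read as a result. At an unadjusted p below 0.05 the microrod counts were 2 for CaP, 1 for SiO2 and 0 between them, against 2985, 1540 and 310 of all 16621 genes tested. The median log2 difference of the 6 was -0.46 in M1, -0.91 in M2, 0.04 with CaP, 0.12 with SiO2 and -0.04 between the microrods. Over all genes tested it was -0.01, 0.07, 0.06, -0.02 and 0.03 in the same order.

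Proteases that serpins act on, and related genes, were examined as a list of 29 genes. They were the neutrophil serine proteases, granzymes, plasminogen activator system, cysteine cathepsins and caspases. The list also holds *Plaur*, which encodes the urokinase receptor and not a protease. Counts, medians and the figure of the proteases below include it. The targets for which *Serpinb1a* and *Serpinb9* are best known were scarce in these cells. *Ctsg*, cathepsin G, and *Gzmb*, granzyme B, had no count in any library, and *Elane*, neutrophil elastase, held 2 to 8 counts per group. *Prtn3*, proteinase 3, was at 0.454 ± 0.242 CPM in M0 (SD, n = 3) and 0.413 ± 0.134 CPM with CaP. *Gzmm*, granzyme M, held 2 to 10 counts per group.

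Several cysteine cathepsins and the urokinase genes *Plau* and *Plaur* were well expressed, and single genes of the list were DEGs. In M1, 3 of 14 listed genes tested were DEGs, where 14.1% of all genes were, with *Ctsc* higher and *Plau* and *Ctsf* lower. *Ctsc*, the cathepsin that activates granule serine proteases, was at 676 ± 83.9 CPM in M1 against 439 ± 67.0 in M0 (SD, n = 3 each), a rise of 0.62 (SE 0.18, adjusted p = 0.0374). *Plau*, urokinase, was at 5.99 ± 1.62 CPM against 29.3 ± 17.6 in M0, where its libraries ranged from 13.1 to 48.1 CPM, and fell by 2.31 (SE 0.69, adjusted p = 0.0392). *Ctsf*, a lysosomal cathepsin, fell by 1.55 (SE 0.36, adjusted p = 0.0115), and that call was lost without M0 replicate 2 (0.0539). The *Ctsc* call held in 6 of 13 alternatives, and the losses included leaving out M1 replicate 1, 2 or 3 (adjusted p = 0.122, 0.0847 and 0.0586) or M0 replicate 1 or 2 (0.144 and 0.102). The *Plau* call held in 7 of 13, and the losses included those without M1 replicate 1, 2 or 3 (0.112, 0.0879 and 0.124) or M0 replicate 1 or 2 (0.165 and 0.0663).

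In M2, also 3 of 14 listed genes tested were DEGs, where 4.13% of all genes were, and *Plaur* among them does not encode a protease. *Ctsh*, an aminopeptidase cathepsin, was at 155 ± 19.3 CPM against 65.2 ± 10.6 in M0 (SD, n = 3 each) and rose by 1.25 (SE 0.16, adjusted p = 4.4e-04). *Plaur*, the urokinase receptor, fell by 0.75 (SE 0.14, adjusted p = 0.00736) from 322 ± 43.5 to 191 ± 20.9 CPM. *Ctsl*, a lysosomal cathepsin, fell by 0.76 (SE 0.19, adjusted p = 0.0366) and held in 7 of 13 alternatives, with losses that included those without M2 replicate 1, 2 or 3 (0.0538, 0.0523 and 0.136) or M0 replicate 2 or 3 (0.113 and 0.0871). The calls of *Ctsh* and *Plaur* were lost only in the model of the 6 libraries compared (adjusted p = 0.0749 and 0.229).

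With CaP microrods 1 of 15 listed genes tested was a DEG, where 0.409% of all genes were. *Ctsk*, the collagen-degrading cathepsin of osteoclasts, was at 0.888 ± 0.176 CPM against 0.125 ± 0.0924 in M0 (SD, n = 3 each), with 93 and 6 counts in all, and the fitted rise was 3.12 (SE 0.47, adjusted p = 0.0165). Each M0 library held 3 counts of *Ctsk* or fewer. The log2 rise of *Ctsk* moved with single M0 libraries, to 2.75 without M0 replicate 1 and 3.49 without M0 replicate 3. The call was lost without M0 replicate 1 (adjusted p = 0.244), without CaP replicate 2 (0.0531) and with a replicate block (0.0526). DESeq2 gave *Ctsk* no adjusted p and so did not call it. In the SiO2 group *Ctsk* was at 0.645 ± 0.0777 CPM and not a DEG (adjusted p = 0.112). *Plau* was at 108 ± 53.2 CPM with CaP, a log2 difference from M0 of 1.85 (SE 0.50, adjusted p = 0.13), and *Ctsb*, cathepsin B, was at 1337 CPM with CaP and 1513 with SiO2 against 702 in M0 (adjusted p = 0.171 and 0.339). No protease was a DEG with SiO2 or between the microrods, where 0.0602% and 0.0241% of all genes were. At an unadjusted p below 0.05 there were 5 of the 15 with CaP, 3 with SiO2 and 0 between the microrods. Over all 16621 genes tested the counts were 2985, 1540 and 310 in the same order. The median log2 difference of the proteases tested was 0.23 in M1, -0.03 in M2, 0.01 with CaP, 0.17 with SiO2 and -0.10 between the microrods.

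**Figure D4:**
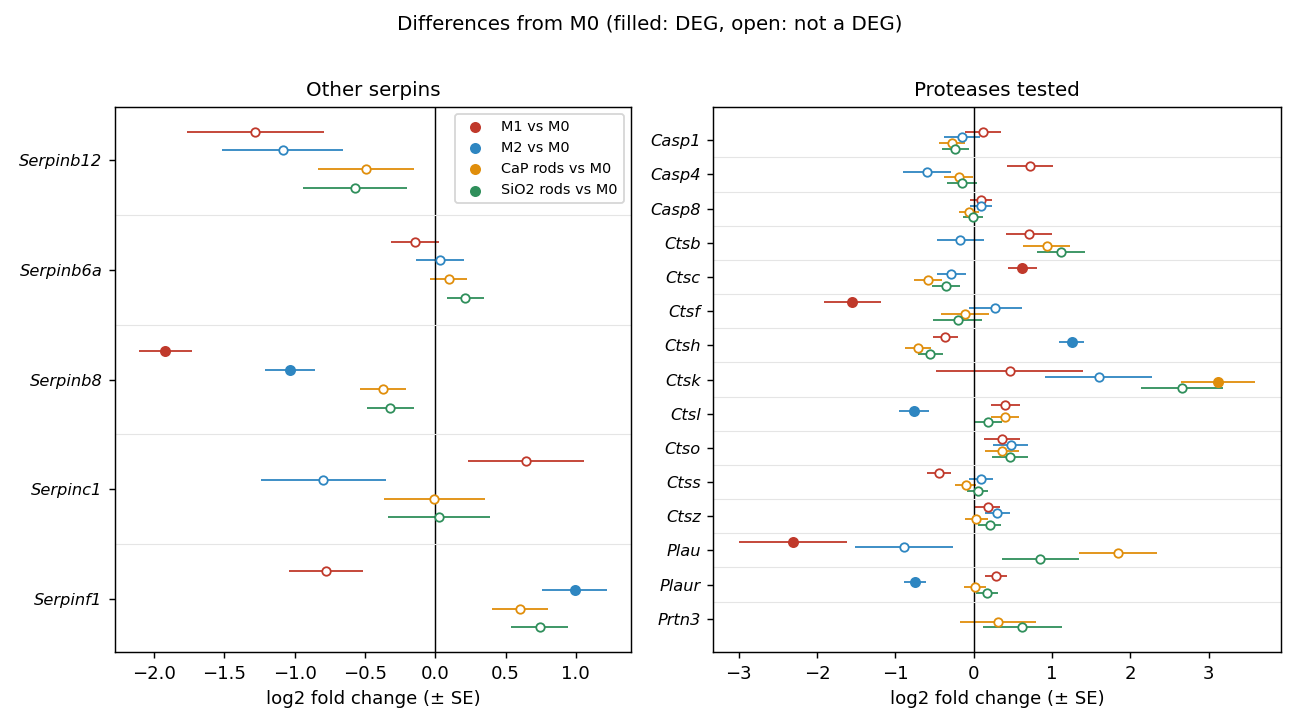
Fitted log2 fold changes from M0 (horizontal axes, bars are ± SE) of 5 tested serpins outside the 9 (left) and the tested proteases (right), for M1, M2, CaP and SiO2; filled points are DEGs and open points are not. *Serpinb8* lies at -1.92 in M1 and -1.03 in M2, *Serpinf1* at 0.99 in M2, and the only filled microrod point is *Ctsk* with CaP at 3.12.

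The genes most like each serpin in pattern were found by Pearson's r of log2 CPM over the 15 libraries among 14509 other genes with a mean of at least 1 CPM. These are the highest of many correlations across libraries that share the groups, and they are given as a description. For *Serpinb1a* they were *Atp6v0d2*, a subunit of the vacuolar proton pump (r = 0.90), and *Jmjd6* (r = 0.88). *Atp6v0d2* was at 0.776 ± 0.298 CPM in M0, 0.187 ± 0.195 in M1, 2.19 ± 0.346 in M2, 14.3 ± 1.92 with CaP and 4.47 ± 0.458 with SiO2 (SD, n = 3 each), the highest and lowest groups being those of *Serpinb1a*. *Serpinb9* was most like *Ap3m2*, a subunit of an adaptor complex of vesicle transport (r = 0.86), which was at 5.15 ± 0.555 CPM in M1 against 2.45 ± 0.332 in M0, and the identifier ENSMUSG00000094915 (r = 0.85). *Serpinb6b* was most like ENSMUSG00000118449 and *Supt3* (r = 0.85 each), and *Serpinb1b* like *A530013C23Rik* (r = 0.85) and *Tmem217* (r = 0.84). *Serpinb1c* was most like *Mtfmt* and *Gm28981* (r = 0.84 each). For *Serpinb9b* they were *Sccpdh* (r = 0.80), which was at 3.21 ± 0.635 CPM in M0 and 6.63 ± 0.775 with SiO2, and *Cryz* (r = 0.78).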

How the data were processed

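RNA from 15 wells of MH-S cells was made into Smart-seq2 libraries, without molecular identifiers, so PCR copies could not be told from separate molecules. Intervals and floors cover the counting of reads only, not error from that copying. The authors processed paired-end reads with the nf-core/rnaseq pipeline (STAR and Salmon, Ensembl annotation, GRCm39 per the labels) and deposited whole-number counts per gene identifier, which may be rounded estimates. A symbol was given to 51487 identifiers from an annotation of another release, which also supplied transcript lengths, gene order and sequences (GRCm38.p6). Replicates are wells, and replicate libraries differed beyond sampling noise.

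Groups were compared with edgeR 4.0.16 and limma 3.58.1 in R 4.3.3 (filterByExpr by group, TMM, quasi-likelihood test, Benjamini-Hochberg adjustment). M1 and M2 were compared with M0 in a model of all 15 libraries (16654 genes tested), and the microrod groups in a model of 9 libraries (16621 genes tested). No term for replicate number was used. Levels are CPM on TMM-scaled library sizes. A library with 3 counts or fewer of a gene is at the floor. The test was tried on simulated counts with 200 changed genes. Alternatives were DESeq2 1.42.0 (test, and its size factors in edgeR), no filter, at least 10 counts in every library, a replicate block, other libraries in the model, sums of close paralogs and leaving out each library. The legacy quasi-likelihood was added after seeing the data.

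The 9 serpins and all lists were chosen with earlier results of these data known. Named genes are the 9 serpins, every other serpin and listed protease that was a DEG (1 serpin is not reported here), the most alike pair for each serpin and marker genes. *Wrnip1*, the other proteases and *Serpinb6a* were named after their values were seen.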

Additional observations from a re-analysis of the deposited data

How the results depend on the processing

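For the 6 serpins that passed the filter, 395 log2 differences were recomputed. Of these, 21 moved by more than a limit set somewhat above their SE, mostly under the sum of close paralogs, and 8 changed sign. Counts of DEGs over all genes moved more. In the main models they were 2342 in M1, 687 in M2, 68 with CaP, 10 with SiO2 and 4 between the microrods. For M2 against M0 there were 1141 without a filter and 98 with the 6 libraries compared, where the other serpins called numbered 1 and 0 and the proteases called 0 with the 6 libraries. For CaP against M0 there were 648 with DESeq2, 178 without a filter, 28 with the replicate block and 109 with all 15 libraries, and the proteases called were 2 with DESeq2 (neither of them *Ctsk*), 0 when every library had to hold 10 counts and 0 with the replicate block. For SiO2 against M0 there were 129 with DESeq2, 17 without a filter, 1 with the replicate block and 44 with all 15 libraries. For CaP against SiO2 there were 16 with DESeq2, 8 without a filter, 2 when every library had to hold 10 counts and 1 with the replicate block. The causes were not tested. On leaving out a library, DEGs ranged from 1511 (without M1 replicate 3) to 2064 in M1, 316 (without M0 replicate 1) to 1361 (without M2 replicate 2) in M2, 13 (without M0 replicate 1) to 743 (without CaP replicate 1) with CaP, 0 (without M0 replicate 1) to 5 with SiO2 and 1 to 3 between the microrods. Proteases called then ranged from 1 to 4 in M1, 2 to 3 in M2 and 0 to 3 with CaP, and other serpins in M2 from 1 to 2. The replicate numbers did not pair the libraries, since deviations of same-numbered libraries correlated at -0.70 to 0.60 over 30 pairs (median -0.01) and 4 of 15 libraries correlated best with their own number. Genes of a few counts per library, such as *Serpinb9b* in M0, are limited by depth.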
